A study of Mus musculus with 6 samples.

Results

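The interferon-stimulated genes described here are 38 genes that type I or type II interferon is known to induce. They were taken by name from the 22162 genes of the deposited table, all 38 were found, and 34 of them were expressed highly enough to be tested, among 11877 genes tested in all. They fall into 9 role groups. The RNA sensors are Ddx58, Ifih1 and Dhx58, and the transcription factors are Stat2, Irf1, Irf7 and Irf9. The enzymes that bind double-stranded RNA are Eif2ak2, Adar, Oas1a, Oas2, Oas3 and Oasl2. The antiviral effectors are Bst2, Samd9l, Ifit1, Ifit2, Ifit3, Mx1, Mx2, Rsad2 and Cmpk2. The ISG15 system is represented by Isg15, Usp18, Herc6 and Trim25, the ADP-ribosyltransferases by Parp9 and Parp14, the GTPases by Gbp2, Gbp3, Irgm1 and Igtp, and the chemokines by Cxcl9 and Cxcl10. Ifi35, Ifi44, Rtp4 and Xaf1 form a last group of other induced genes.

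Type I interferons bind a cell-surface receptor whose kinases JAK1 and TYK2 phosphorylate STAT proteins, among them STAT2, which acts with IRF9 in a complex that binds the interferon-stimulated response element (ISRE) in the promoters of responsive genes. Type II interferon, made mainly by lymphocytes, acts on genes that carry the gamma-activated site (GAS). Fibroblasts secrete interferon-beta when sensors such as RIG-I, MDA5 or cGAS detect foreign or misplaced nucleic acid, and many of the genes listed also have a basal level in unstimulated fibroblasts.

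Poly(A) RNA was sequenced from mouse skin fibroblasts (MSFs) of the FVB/N strain, cultured from enzymatically digested dorsal skin, in 3 libraries labelled senescent, from cells given 10 µM tamoxifen (TAM) for 48 h, and 3 labelled non-senescent, from cells given the ethanol vehicle (EtOH). By the study's description, every cell of both groups carries 2 alleles, a tamoxifen-dependent Cre recombinase (Cre-ERT2) driven by the pro-alpha 2(I) collagen promoter and a p27Kip1 and GFP cassette at ROSA26 that is silent until Cre removes a stop. Cells of both groups were treated for 48 h and kept in 3% oxygen. No library came from cells without the alleles, so an effect of TAM itself and an effect of the activated p27Kip1 cannot be told apart. The study's methods describe the MSFs as a line from the skin of 1 female FASST mouse, so all 6 libraries may come from 1 animal. The age of the mouse and whether the 3 replicates of a group were separate cultures are not stated, so p-values here measure the spread between these libraries, which may be technical. In bulk RNA, a change in the number of cells of a type and a change in RNA per cell cannot be told apart.

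The values are normalized counts per gene, in sums of 14952367 to 17314953 per library, and 16.2 normalized counts were taken as 1 c.p.m. (count per 10⁶ reads). The smallest value above 0 was between 0.36 and 0.89 in each library, so a difference of a few normalized counts may be a few reads. Cdkn1b, the gene of p27Kip1, had 1427, 3074 and 1853 normalized counts in EtOH_1, EtOH_2 and EtOH_3 and 1699, 1520 and 1630 in TAM_1, TAM_2 and TAM_3, with a log2 fold change of −0.32 and an adjusted p of 0.677 (limma). Whether reads of the cassette were counted on Cdkn1b is not known, so the labels stand unchecked by this gene. The replicate 2 libraries stood apart over all genes, and the values that moved most without them are given below. The 10 fibroblast markers were all expressed above the filter, and their summed level was 1531770 to 1680760 normalized counts in EtOH and 684994 to 1127540 in TAM. Of the macrophage markers Emr1 and Tyrobp were at 0 in every library and Ptprc reached at most 5.01, with 4 of 9 above the filter and sums of 204 to 529 in EtOH and 369 to 549 in TAM. None of 9 lymphocyte and plasmacytoid dendritic cell markers passed the filter, Cd3e and Ncr1 were at 0 in every library, and the sums were 3.55 to 17.1 in EtOH and 8.30 to 10.2 in TAM. The 5 endothelial markers summed to 85.9 to 241 in EtOH and 15.7 to 35.1 in TAM with Kdr above the filter, and the 6 keratinocyte markers to 42.9 to 62.1 and 54.3 to 73.9 with Krt1 at 0 throughout.

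Promoters of RefSeq transcripts on GRCm38.p6 were read from 250 bases before to 50 bases after the start of transcription. Since the expression values use mm9, the promoter coordinates are given on GRCm38.p6 only and were not combined with mm9 positions. A promoter was found for 30 of the 38 genes, and none for Dhx58, Oas2, Mx1, Mx2, Usp18, Parp9, Parp14 and Rtp4. The ISRE letters searched were GAAA, any 2 bases and GAAA again, on both strands and with overlapping matches counted, and the GAS letters were TTCNNNGAA, which read the same on the other strand. An ISRE match was present for 16 of the 30 genes (53.3%, exact 95% confidence interval 34.3 to 71.7%), against 3.99% of 27025 genes with a promoter and 3.44% of all 32851 promoters. The same letters followed by CT matched for 9 of the 30 (30.0%), against 0.303% of all genes. A GAS match was present for 8 of the 30 (26.7%), against 9.55% of all genes and 8.30% of all promoters. These matches describe letters in a window and not sites of binding.

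The windows below show the matches of the genes that the expression results turn on, with up to 40 bases on each side inside the promoter, 5′ to 3′ along the gene's own strand. Capitals mark the ISRE match, joined where matches overlap. On genes where the motif lies on the other strand it reads as TTTC repeats.
Isg15 and Bst2, shown for their high level per kilobase and for overlapping matches, lie at chr4:156200835-156200936 and chr8:71537547-71537642, both on the minus strand.
Isg15: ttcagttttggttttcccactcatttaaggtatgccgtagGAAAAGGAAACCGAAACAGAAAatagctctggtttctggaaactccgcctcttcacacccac
Bst2: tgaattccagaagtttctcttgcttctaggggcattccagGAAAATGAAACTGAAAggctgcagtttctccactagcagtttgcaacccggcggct
Irgm1 (chr11:48871421-48871490, minus strand) and Gbp3 (chr3:142559959-142560043, plus strand) are GTPase genes with the same overlapping arrangement, Gbp3 on the other strand, and Oas3 (chr5:120777685-120777774, minus strand) has a single match.
Irgm1: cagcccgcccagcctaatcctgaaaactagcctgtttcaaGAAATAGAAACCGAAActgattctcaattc
Gbp3: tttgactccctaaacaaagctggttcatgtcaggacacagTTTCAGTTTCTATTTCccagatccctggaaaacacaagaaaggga
Oas3: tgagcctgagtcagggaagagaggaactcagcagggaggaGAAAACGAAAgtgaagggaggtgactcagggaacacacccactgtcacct
Ifit1 (chr19:34640745-34640853, plus strand) and Ifit3 (chr19:34583333-34583456, plus strand) each have a pair of separate matches. They are shown because they lie in the same region as Ifit2, which had no ISRE match. Ifit1 had a positive log2 fold change, and Ifit2 and Ifit3 had negative ones. Whether the matches bear on the values was not tested.
Ifit1: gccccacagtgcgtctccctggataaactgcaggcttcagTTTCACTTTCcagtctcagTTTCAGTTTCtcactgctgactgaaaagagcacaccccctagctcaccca
Ifit3: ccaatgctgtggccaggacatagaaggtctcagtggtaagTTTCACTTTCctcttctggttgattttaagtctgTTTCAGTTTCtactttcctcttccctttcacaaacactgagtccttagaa
Rsad2 (chr12:26456523-26456612, minus strand) and Cxcl10 (chr5:92349053-92349139, minus strand) are shown because EtOH_2 set their values apart, and each has 1 match.
Rsad2: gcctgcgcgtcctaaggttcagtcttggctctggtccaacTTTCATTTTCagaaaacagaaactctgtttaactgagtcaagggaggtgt
Cxcl10: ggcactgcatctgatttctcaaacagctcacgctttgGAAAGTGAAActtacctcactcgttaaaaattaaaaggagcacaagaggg
Irf1 (chr11:53769884-53769972, plus strand) had no ISRE match, and its capitals mark a GAS match.
Irf1: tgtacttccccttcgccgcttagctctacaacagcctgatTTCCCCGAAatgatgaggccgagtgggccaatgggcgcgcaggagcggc

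The matches of Isg15 lie between 78 and 57 bases before the start, and those of Bst2 between 130 and 115 bases before it. Among the genes tested, the median log2 fold change between TAM and EtOH was 0.38 for the 15 with an ISRE match and 0.37 for the 12 with a promoter but no match, and with the CT added to the letters it was 0.54 for 8 genes and 0.38 for 19. With the GAS letters the medians were 0.38 for 7 genes and 0.38 for 20. These differences were not tested.

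**Figure D1:**
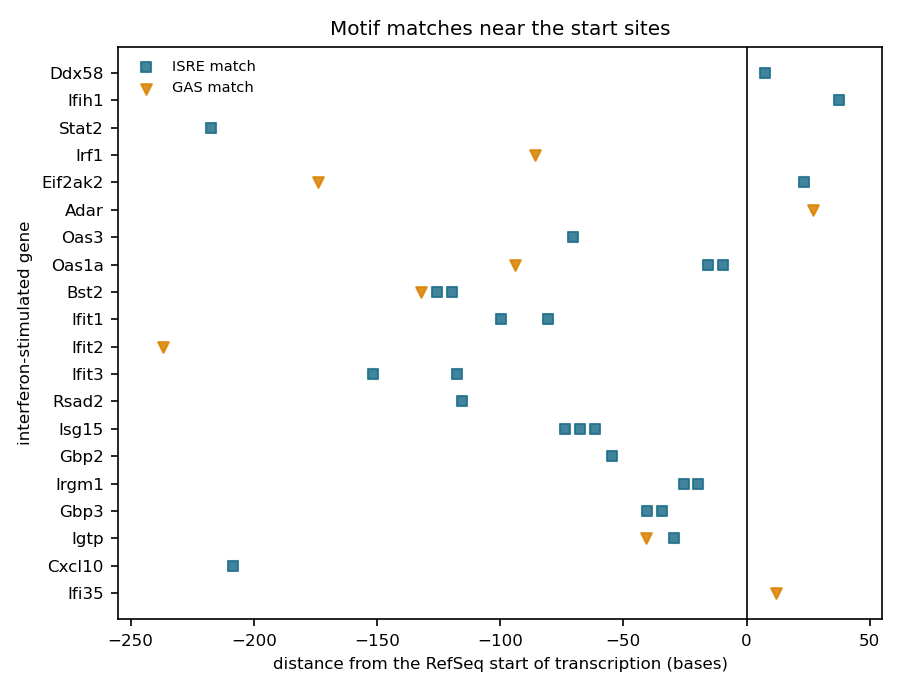
Centres of ISRE and GAS matches in the promoters of the 20 interferon-stimulated genes with at least 1 match, by distance in bases from the RefSeq start of transcription (negative before the start, the vertical line at 0). Matches of Isg15, Gbp3, Irgm1, Gbp2 and Igtp lie within 80 bases before the start, and those of Stat2 and Cxcl10 over 200 bases before it.

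The question was whether the interferon-stimulated genes differed between TAM and EtOH libraries. Most of them had higher values in TAM, with differences that varied from pair to pair. The log2 fold change, a difference of mean log2(normalized counts + 1), was positive for 27 of the 34 genes tested and negative for 7, against 46.2% positive among all genes tested. Its median was 0.40 over the 34 genes and −0.03 over all genes. Limma with Benjamini-Hochberg adjustment over all genes called 0 of the 34 in either direction at an adjusted p under 0.05, and it also called 0 when the replicate number entered as a block. Shares of all genes called were 0.168% higher and 0.0758% lower without the block and 1.00% and 0.615% with it. The smallest adjusted p among the 34 was 0.152, for Bst2. At an unadjusted p under 0.05, 10 of the 34 were higher in TAM (29.4%, against 6.67% of all genes) and 1 was lower, against 6.70% of all genes. With the block these counts were 11 and 1, against 8.64% and 8.32% of all genes. The count of 10 depended on single libraries. It was 4 without TAM_1 (5.02% of all genes), 5 without TAM_3 (5.84%) and 6 without EtOH_1 (5.98%). Without TAM_2 it was 15 (6%), and without both replicate 2 libraries 19 (9.48%). The 3 TAM values lay above all 3 EtOH values for 12 of the 34 genes (35.3%), against 9.19% of all genes, and below them for 1 gene (2.94%), against 11.4%. The genes are induced by shared factors and are not independent of each other. For a single gene, the smallest two-sided p that an exact permutation of 3 TAM and 3 EtOH values can give is 0.1.

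**Figure D2:**
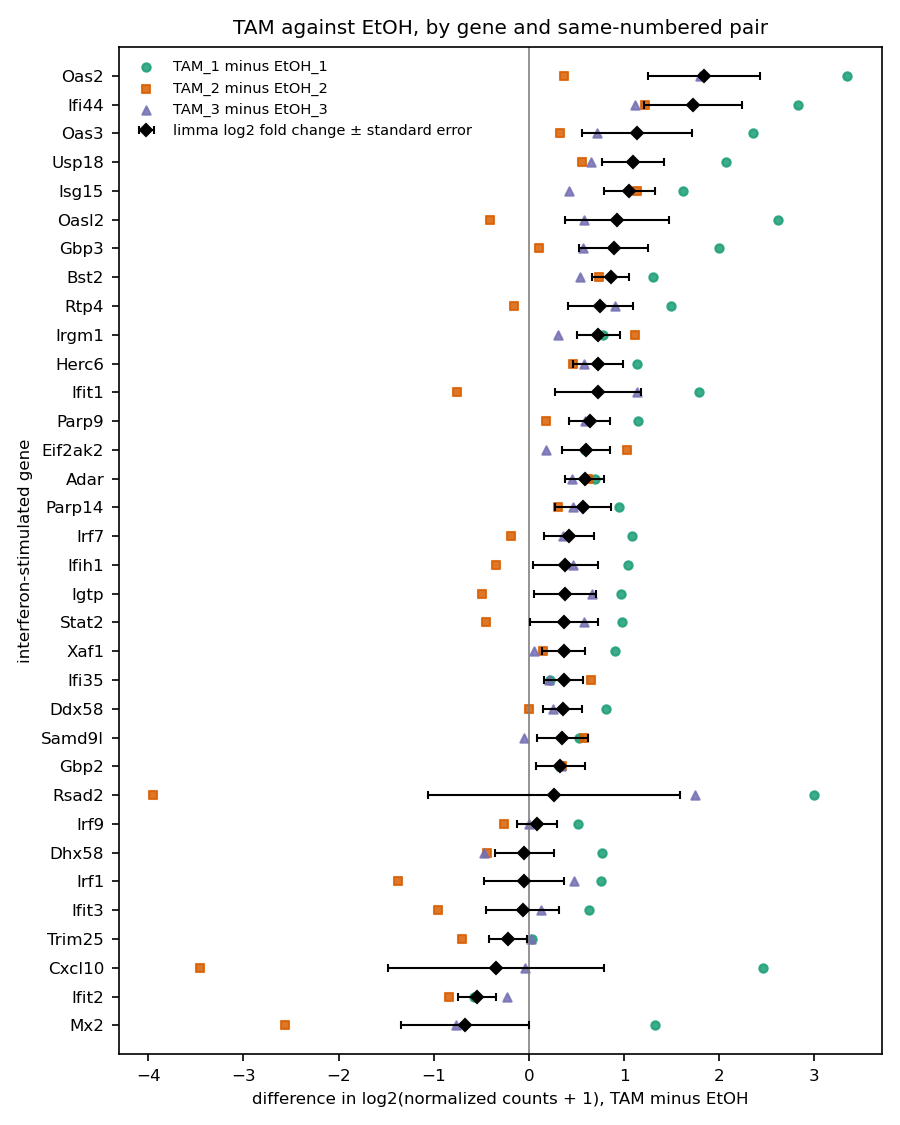
Log2 fold changes of the 34 interferon-stimulated genes tested (black diamonds, limma estimate ± standard error) and the differences of the same-numbered pairs (coloured points), on the log2(normalized counts + 1) scale, ordered by log2 fold change. Differences run from −0.67 for Mx2 to 1.84 for Oas2, and pair 2 is lowest for Rsad2, Cxcl10 and Mx2.

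The same-numbered pairs were unlike in these genes, with the largest differences in pair 1 and the smallest in pair 2. The median difference between same-numbered libraries was 1.01 in pair 1, 0.05 in pair 2 and 0.46 in pair 3 on the log2 scale, while over all genes it was −0.05, 0.00099 and −0.05. In pair 1, 33 of the 34 genes were higher in TAM, in pair 2 only 18, and in pair 3 28. Over all 11877 genes tested these counts were 5371, 5943 and 5253. All 3 pairs were higher in TAM for 17 genes and lower for 1, Ifit2, against 2176 and 2803 of the 11877 genes. Pair 2 had the smallest difference of the 3 pairs for 23 genes (67.6%), against 40.3% of all genes. TAM_2 was the lowest TAM library for 30 genes (88.2%), against 40.2% of all genes. EtOH_2 was the highest EtOH library for 13 genes (38.2%), close to the 40.1% of all genes. EtOH_1 was the lowest EtOH library for 27 genes (79.4%), against 30.2%, and the lowest of all 6 libraries for 25. TAM_1 was the highest TAM library for 25 genes (73.5%), against 29.1%, and the highest of all 6 for 20. Relative to the mean of each gene, the median level was −0.62, −0.10 and −0.05 in EtOH_1, EtOH_2 and EtOH_3 and 0.48, −0.17 and 0.32 in TAM_1, TAM_2 and TAM_3. The level of TAM_2 thus lay below those of EtOH_2 and EtOH_3, and the groups overlapped on this measure.

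**Figure D3:**
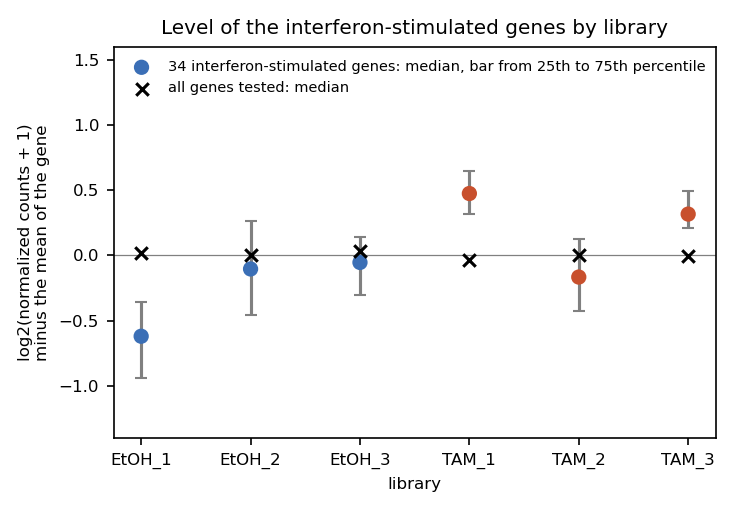
Median level of the 34 interferon-stimulated genes tested in each library, as log2(normalized counts + 1) minus the mean of the gene over the 6 libraries, with bars from the 25th to the 75th percentile, and the median of all genes tested as crosses. The medians are −0.62 in EtOH_1 and 0.48 in TAM_1, and TAM_2 lies at −0.17 among the EtOH libraries, while the crosses stay near 0.

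When both replicate 2 libraries were left out, 33 of the 34 log2 fold changes were positive, Ifit2 being the exception, and the median was 0.74, with no gene past an adjusted p of 0.05 (limma). Among the genes that kept their sign, the log2 fold change grew by more than 1.5 times for genes that included Stat2 (to 0.78), Ifih1 (0.75), Irf7 (0.73), Ifit1 (1.47), Igtp (0.82), Irf9 (0.26), Rsad2 (2.37), Oasl2 and Rtp4. It shrank by more than 1.5 times for Eif2ak2 (to 0.39) and Ifi35 (0.22). When the replicate block was added to that setting, which was chosen after seeing the data, 5 genes were called higher in TAM, namely Rsad2, Oas2, Rtp4, Ifit1 and Stat2, against 4.44% of all genes called higher (527) and 3.34% lower (397). When limma instead weighted each library by its fit, EtOH_2 and TAM_2 received the lowest weights, 0.292 and 0.288. In that fit Parp9, Oas2, Rtp4, Ifit1 and Bst2 were called higher, against 3.25% of all genes higher (386) and 3.00% lower (356). Oas2, Rtp4 and Ifit1 were called in both settings. Since both settings weaken or remove the replicate 2 libraries, the overlap of their calls is not independent support.

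**Figure D4:**
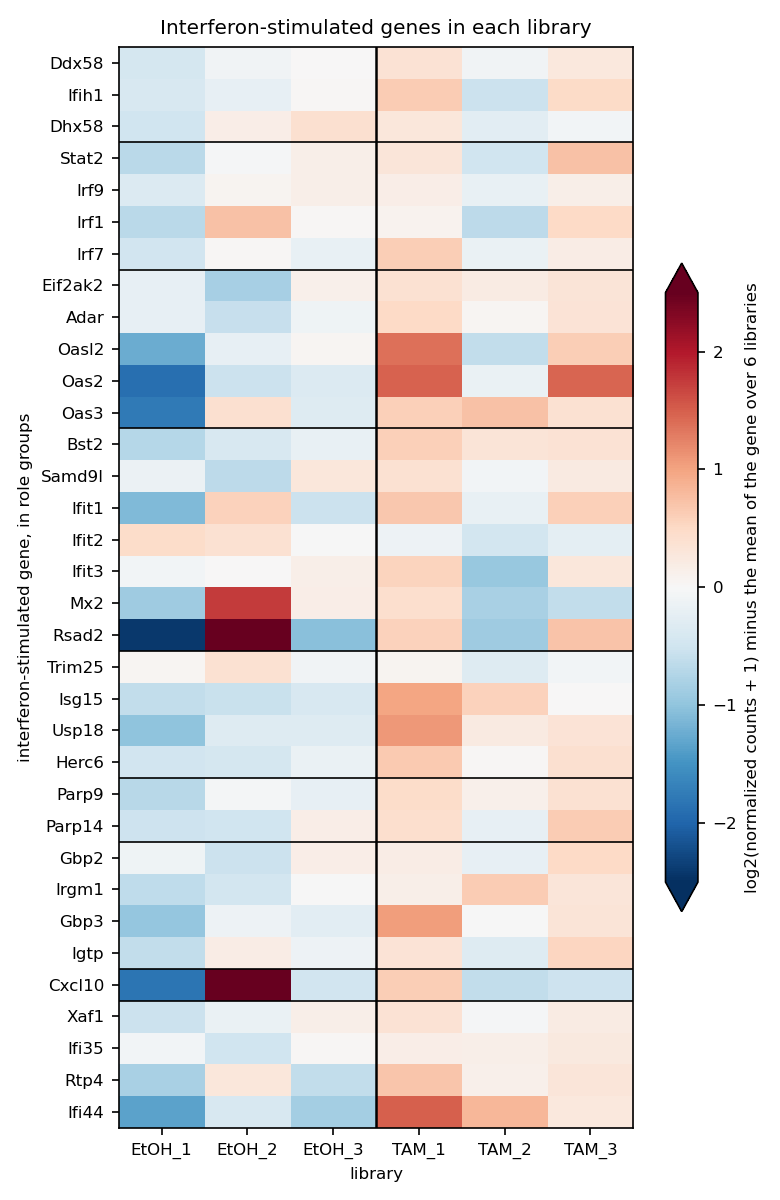
Level of each of the 34 interferon-stimulated genes tested (grouped by role, thin lines between groups) in the 3 EtOH and 3 TAM libraries, as log2(normalized counts + 1) minus the mean of the gene over the 6 libraries, red above and blue below it. EtOH_1 is the lowest library for 25 of the 34 genes and TAM_1 the highest for 20, and Rsad2, Cxcl10 and Mx2 stand out in EtOH_2.

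The RNA sensors had modest differences, and no sensor's groups were separated. Ddx58 encodes RIG-I and Ifih1 encodes MDA5, helicases that detect viral RNA, and Dhx58 encodes LGP2, a regulator of both. Ddx58 had 766, 986 and 1048 normalized counts in EtOH and 1342, 988 and 1248 in TAM, a log2 fold change of 0.35. For Ifih1 the log2 fold change was 0.38, with a mean of 191 ± 27.8 (SD, n = 3) in EtOH and 263 ± 101 (SD, n = 3) in TAM. Dhx58 was at 114 ± 33.9 (SD, n = 3) in EtOH and 108 ± 21.2 (SD, n = 3) in TAM. All 3 sensors were lowest in EtOH_1 among EtOH and lowest in TAM_2 among TAM.

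Among the transcription factors, none had separated groups, and all 4 had their lowest TAM value in TAM_2. STAT2, IRF9 and IRF1 relay the interferon signal, and IRF7 amplifies it by driving interferon genes. Stat2 (chromosome 10 of mm9, 127707629 to 127729905) had the highest level per kilobase of exons of the 4, with 871, 1348 and 1541 normalized counts in EtOH and 1719, 984 and 2305 in TAM. TAM_2 lay between EtOH_1 and EtOH_2, and the log2 fold change was 0.37 (SE 0.36, limma adjusted p = 0.700). Irf7 (chromosome 7, 148448605 to 148452380), the lowest of the 4 per kilobase, had 179, 254 and 221 normalized counts in EtOH and 382, 222 and 284 in TAM. Its log2 fold change was 0.42 (SE 0.26, limma adjusted p = 0.550), and TAM_1 and TAM_3 lay above every EtOH library. Irf9 had a log2 fold change of 0.08. Irf1, whose promoter holds the GAS match shown above, reached 745 normalized counts in EtOH_2 and was at 282 and 457 in EtOH_1 and EtOH_3 and at 476, 286 and 635 in TAM, a log2 fold change of −0.05. Without EtOH_2 it was 0.30.

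The enzymes that bind double-stranded RNA held the largest differences, with 5 positive log2 fold changes among the 5 tested, their median 0.93, and with separated groups for 3 of them, Oas2, Eif2ak2 and Adar. The oligoadenylate synthetases make a messenger that activates RNase L, which cleaves RNA. Oas2 (chromosome 5, 121180342 to 121199862) had 20.8, 54.3 and 61.9 normalized counts in EtOH_1, EtOH_2 and EtOH_3 and 221, 70.4 and 218 in TAM_1, TAM_2 and TAM_3. TAM_1 and TAM_3 were far above the EtOH libraries, and TAM_2 lay just above the highest of them. For Oas2 the log2 fold change was 1.84 (standard error, SE, 0.59, limma adjusted p = 0.258), the largest of the 34, and the differences within pairs 1, 2 and 3 were 3.35, 0.37 and 1.80. Oas3 (chromosome 5, 121203107 to 121227670), the lowest of the tested enzymes per kilobase, had 7.54, 37.2 and 22.1 normalized counts in EtOH and 42.7, 46.9 and 36.9 in TAM. The groups overlapped only where EtOH_2 exceeded TAM_3, and the log2 fold change was 1.13 (SE 0.58, limma adjusted p = 0.456). Oasl2, an OAS-like gene that is also active as a synthetase in mice, had 225 ± 91.6 (SD, n = 3) normalized counts in EtOH and 466 ± 286 (SD, n = 3) in TAM, with TAM_2 at 190 inside the EtOH range. Oas1a did not pass the filter. It was at 3.70, 1.86 and 3.43 in EtOH and 19.8, 5.01 and 16.1 in TAM, and since 100% of its annotated transcript matched Oas1g at 95% identity or more in stretches of 100 bases or longer, its counting is uncertain.

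Eif2ak2 encodes PKR, a kinase that halts translation when it binds double-stranded RNA, and Adar encodes an enzyme that edits adenosine to inosine in such RNA and so lowers its detection. Eif2ak2 (chromosome 17, 79251904 to 79281913) was the highest of these enzymes per kilobase, with 962, 626 and 1217 normalized counts in EtOH and 1445, 1275 and 1384 in TAM. All TAM values lay above all EtOH values, but the gap from EtOH_3 to TAM_2 was small, and the log2 fold change was 0.60 (SE 0.26, limma adjusted p = 0.377). Genes of the other strand share 4.32% of its exon bases, and the strand setting of the counting is not given in the sources used here. Adar was at 822 ± 136 (SD, n = 3) in EtOH and 1234 ± 194 (SD, n = 3) in TAM, with separated groups and a difference between 0.45 and 0.69 in each pair.

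Among the antiviral effectors the log2 fold changes were positive for 4 of the 7 tested and negative for 3, and TAM_2 was the lowest TAM library for all 7. Bst2 encodes tetherin, which holds budding virus particles at the cell surface. Bst2 (chromosome 8, 74058163 to 74061336) had the highest level per kilobase of all 38 genes, with 463, 570 and 670 normalized counts in EtOH and 1144, 953 and 975 in TAM. Every TAM library lay well above every EtOH library. The log2 fold change was 0.86 (SE 0.19, limma adjusted p = 0.152), and pairs 1, 2 and 3 differed by 1.30, 0.74 and 0.54. Samd9l, a restriction factor that blocks poxvirus replication, was at 579 ± 184 (SD, n = 3) in EtOH and 718 ± 111 (SD, n = 3) in TAM, with overlapping groups.

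The products of the 3 IFIT genes bind foreign RNA or hinder its translation. These genes lie in 1 region of chromosome 19, between 34625184 and 34724499, and differed in direction. Ifit2 (34625184 to 34650909) was the 1 gene of the list whose TAM values all lay below its EtOH values, with 797, 756 and 576 normalized counts in EtOH and 536, 422 and 493 in TAM. Its log2 fold change was −0.54 (SE 0.20, limma adjusted p = 0.299), and pairs 1, 2 and 3 differed by −0.57, −0.84 and −0.22. Ifit1 (34715361 to 34724499) had 193, 622 and 287 normalized counts in EtOH and 671, 367 and 633 in TAM. For Ifit1 the log2 fold change was 0.72, and 1.19 without EtOH_2, whose value exceeded those of EtOH_1 and EtOH_3 more than 2 times. Ifit3 was at 294 ± 22.5 (SD, n = 3) in EtOH, and at 424, 148 and 348 in TAM, where TAM_2 was the lowest of all 6 libraries. The log2 fold change of Ifit3 was −0.07. Of the Ifit3 transcript 97.4% matched I830012O16Rik at 95% identity or more, so counts of this gene are uncertain.

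Rsad2, Mx2, Mx1, Cmpk2 and Cxcl10 shared a high value in EtOH_2. Together with Ifit1, they were the 6 of 38 genes (15.8%) with EtOH_2 more than 2 times above both other EtOH libraries, a limit chosen after the values were seen. Among the genes tested it was 4 of 34 (11.8%), against 6.47% of all genes. Rsad2 (chromosome 12, 27127618 to 27141317) encodes viperin, an enzyme that makes a chain-terminating nucleotide, and was the lowest of the tested effectors per kilobase. It had 5.16, 272 and 14.9 normalized counts in EtOH_1, EtOH_2 and EtOH_3 and 48.3, 16.7 and 52.5 in TAM_1, TAM_2 and TAM_3. EtOH_2 was 18.3 times the next EtOH library, while EtOH_1 and EtOH_3 lay below all TAM libraries. For Rsad2 the log2 fold change was 0.27 (SE 1.32, limma adjusted p = 0.955) with all libraries and 1.86 (adjusted p = 0.333) without EtOH_2.

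Mx2 (chromosome 16, 97757690 to 97782506) and Mx1 encode dynamin-like GTPases that block viral particles. Mx2 had 49.8, 317 and 105 normalized counts in EtOH and 126, 52.8 and 60.9 in TAM, and its negative log2 fold change of −0.67 (SE 0.68, limma adjusted p = 0.715) was 0.04 (adjusted p = 0.983) without EtOH_2. Of the Mx2 transcript 34.8% matched Mx1 at 95% identity or more, so part of its counts may be shared. Mx1 was at 6.76, 104 and 15.9 in EtOH and 29.9, 8.36 and 8.30 in TAM and did not pass the filter. Cmpk2, a nucleotide kinase that lies beside Rsad2 on chromosome 12, was at 1.30, 33.5 and 14.2 in EtOH and 15.7, 5.85 and 14.4 in TAM and also did not pass. For Rsad2, Mx1, Mx2 and Cmpk2 alike, TAM_1 exceeded EtOH_1, and EtOH_2 exceeded TAM_2.

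**Figure D5:**
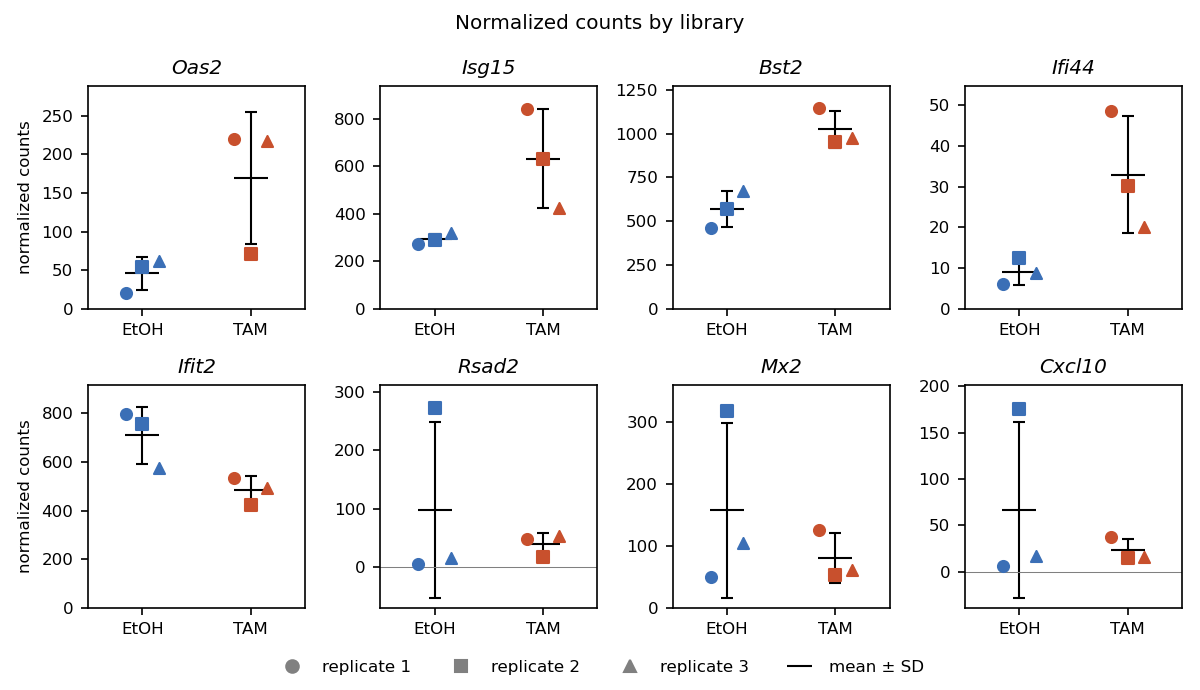
Normalized counts of 8 interferon-stimulated genes in each library (circle, square and triangle for replicates 1, 2 and 3) with the mean ± SD (n = 3) of each group; for Rsad2 and Cxcl10 the SD bar of EtOH reaches below 0. TAM values lie above all EtOH values for Oas2, Isg15, Bst2 and Ifi44 and below them for Ifit2, and EtOH_2 is the highest library for Rsad2, Mx2 and Cxcl10.

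In the ISG15 system the groups were separated for 3 of 4 genes. ISG15 is a ubiquitin-like protein that is attached to other proteins, HERC6 is its main mouse ligase, USP18 removes it and also damps the type I receptor, and TRIM25 is a ligase that acts on RIG-I. Isg15 (chromosome 4, 155573533 to 155574927) had the second highest level per kilobase of all 38 genes, with 274, 288 and 318 normalized counts in EtOH and 841, 633 and 425 in TAM. The EtOH values were close together and the TAM values were spread, but all lay above them. Its log2 fold change was 1.06 (SE 0.27, limma adjusted p = 0.185), with differences of 1.62, 1.13 and 0.42 in pairs 1, 2 and 3. Herc6 (chromosome 6, 57530986 to 57615130), the lowest of this group per kilobase, had 68.7, 71.5 and 85.9 normalized counts in EtOH and 152, 98.9 and 128 in TAM. Herc6 had a log2 fold change of 0.72 (SE 0.26, limma adjusted p = 0.297). Usp18 was at 88.7 ± 22.1 (SD, n = 3) in EtOH and 193 ± 65.9 (SD, n = 3) in TAM, a log2 fold change of 1.09 with separated groups. Trim25 was at 1352 ± 235 (SD, n = 3) in EtOH and 1158 ± 158 (SD, n = 3) in TAM, a log2 fold change of −0.22 with overlapping groups.

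Parp9 and Parp14 encode ADP-ribosyltransferases that modify proteins in the interferon and antiviral response. Parp9 was at 413 ± 89.2 (SD, n = 3) normalized counts in EtOH and 634 ± 73.5 (SD, n = 3) in TAM, a log2 fold change of 0.64 with separated groups. It shares 9.40% of its exon bases with its neighbour Dtx3l on the other strand. Parp14 had a log2 fold change of 0.57, and its groups overlapped, with TAM_2 at 382 below EtOH_3 at 493.

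All 4 genes of the GTPase role group had positive log2 fold changes, between 0.33 and 0.89, with separated groups for Gbp3 and Irgm1. Guanylate-binding proteins and the immunity-related GTPases Irgm1 and Igtp act on vacuoles that hold intracellular microbes, and they respond strongly to type II interferon. Gbp2 (chromosome 3, 142283566 to 142300972) was the highest of the 4 per kilobase, with 592, 442 and 717 normalized counts in EtOH and 735, 561 and 908 in TAM. The groups overlapped, but the differences of Gbp2 in pairs 1, 2 and 3 were alike, at 0.31, 0.34 and 0.34, and the log2 fold change was 0.33 (SE 0.26, limma adjusted p = 0.629). Gbp3 (chromosome 3, 142223016 to 142236173), the lowest per kilobase, had 63.1, 114 and 104 normalized counts in EtOH and 255, 122 and 154 in TAM. TAM_2 lay only slightly above the EtOH libraries, and the log2 fold change was 0.89 (SE 0.36, limma adjusted p = 0.351). Irgm1 was at 400 ± 93.3 (SD, n = 3) in EtOH and 660 ± 118 (SD, n = 3) in TAM, and unlike most genes of the list it was highest in TAM_2, at 792. Igtp was at 93.9 ± 25.3 (SD, n = 3) in EtOH and 123 ± 35.4 (SD, n = 3) in TAM.

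The chemokines Cxcl9 and Cxcl10, which attract T cells through the receptor CXCR3, differed in level, Cxcl10 being low in all libraries but EtOH_2 and Cxcl9 in all 6. Cxcl10 (chromosome 5, 92775664 to 92777915) had 5.95, 176 and 16.7 normalized counts in EtOH and 37.1, 15.1 and 16.2 in TAM. EtOH_2 was 10.5 times the next EtOH library. The log2 fold change of Cxcl10 was −0.35 (SE 1.13, limma adjusted p = 0.926), and 0.98 (adjusted p = 0.575) without EtOH_2. Cxcl10 shares 8.75% of its exon bases with Art3, a gene of the opposite strand. Cxcl9 was at 0, 0 and 0.89 in EtOH and at 1.61, 0.82 and 0.72 in TAM, so it was not above the level of a few reads in any library.

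Of the other induced genes, all 4 had positive log2 fold changes, and the groups were separated for Ifi44 and Ifi35. Ifi44 (chromosome 3, 151393886 to 151412911) encodes a microtubule-associated protein of the interferon response, and it was the lowest gene tested per kilobase. It had 6.00, 12.4 and 8.75 normalized counts in EtOH and 48.6, 30.2 and 20.2 in TAM, each TAM value above each EtOH value. Its log2 fold change was 1.72 (SE 0.51, limma adjusted p = 0.240), and pairs 1, 2 and 3 differed by 2.82, 1.22 and 1.12. Ifi35 (chromosome 11, 101309721 to 101320012), the highest of this group per kilobase, had 279, 206 and 299 normalized counts in EtOH and 327, 325 and 347 in TAM. The TAM values of Ifi35 were close together and the lowest of them was above EtOH_3, with a log2 fold change of 0.36 (SE 0.20, limma adjusted p = 0.499). It shares 16.8% of its exon bases with Gm11626, which is transcribed the opposite way. Rtp4, a chaperone of taste and opioid receptors, had 70.2, 151 and 80.5 normalized counts in EtOH and 199, 135 and 152 in TAM, a log2 fold change of 0.75. Xaf1, a partner of the apoptosis inhibitor XIAP, was at 473 ± 109 (SD, n = 3) in EtOH and 602 ± 80.7 (SD, n = 3) in TAM, a log2 fold change of 0.37.

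The interferon genes themselves were at the limit of detection. Of 20 ligand genes listed, 18 were in the table, 13 of them were at 0 in every library, and the other 5 were above 0 in 1 library each. The largest value of a ligand was 1.95 normalized counts, for Ifnb1 in EtOH_2, which may be a few reads. EtOH_2 was also the library with the high Rsad2, Mx1 and Cxcl10, and a link was not tested. Ifng was at 0.84 in EtOH_1, Ifna4 and Ifna5 at 0.81 in TAM_1, and Ifnab at 0.82 in TAM_2. The 5 receptor genes tested, Ifnar1, Ifnar2, Ifngr1, Ifngr2 and Il10rb, had log2 fold changes between −0.05 and 0.46, and Ifngr2 alone had separated groups, with 820, 943 and 671 normalized counts in EtOH and 1057, 1333 and 970 in TAM. Ifnb1 and Ifngr2 were singled out after their values were seen.

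Outside the 38 genes, 113 genes of the interferon pathway were listed by hand, 106 rows of the table carried their names, and 75 were tested. None was called by limma without the block, where the unadjusted p was under 0.05 for 10 with higher and 1 with lower values in TAM, against 6.67% and 6.70% of all genes. The count of 10 was 8 without TAM_1 (5.02% of all genes) and 7 without TAM_3 (5.84%). It was 17 without TAM_2 (6%) and 21 without both replicate 2 libraries (9.48%). With the block 2 of the 75 were higher, Trim30a and Slfn2, against 1.00% of all genes. Their log2 fold changes were positive for 47 of the 75 (62.7%, against 46.2% of all genes), with a median of 0.16. The groups were separated with TAM higher for 14 (18.7%, against 9.19%) and lower for 5 (6.67%, against 11.4%). Trim30a, a regulator of inflammatory signalling, had 5.16, 2.80 and 11.4 normalized counts in EtOH and 111, 31.8 and 252 in TAM. With a log2 fold change of 3.88, it had a limma adjusted p of 0.135 without the block and 0.0285 with it. Slfn2, a Schlafen gene needed for immune cell quiescence, had 2.06, 12.4 and 1.63 normalized counts in EtOH and 42.2, 116 and 31.9 in TAM. For Slfn2 the log2 fold change was 3.53, and the limma adjusted p was 0.155 without the block and 0.0345 with it. Both genes were higher in TAM in all 3 pairs, by 4.18, 3.11 and 4.36 for Trim30a and by 3.82, 3.13 and 3.64 for Slfn2, so pair 2 was not reversed. Parts of their transcripts match a second gene, 9.75% of Trim30a and 22.8% of Slfn2. The largest negative value was that of Ifi205, a member of the interferon-inducible HIN-200 family, with 1455, 1670 and 1207 normalized counts in EtOH and 543, 91.3 and 903 in TAM. Its log2 fold change was −2.00 (adjusted p = 0.324 from limma) and −1.03 without TAM_2, and 68.1% of its transcript matched Mnda.

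The summed marker levels given above were separated between the groups for the fibroblast and endothelial lists and overlapped for the other lists. The summed fibroblast markers, made up mostly of the collagens Col1a1, Col1a2 and Col3a1, were lower in every TAM library than in any EtOH library and lowest in TAM_2. Thy1 on the same list lay the other way, with 1036, 2165 and 571 normalized counts in EtOH and 2366, 4122 and 2246 in TAM, and Pdgfrb and Vim had log2 fold changes of 0.09 and −0.16. Among the macrophage markers Lyz2 had 46.8, 35.3 and 62.9 normalized counts in EtOH and 103, 143 and 159 in TAM (log2 fold change 1.48, limma adjusted p = 0.141). Csf1r had 75.7, 73.4 and 74.3 in EtOH and 113, 226 and 90.6 in TAM, and Cd14 had 27.1, 65.8 and 29.1 in EtOH and 96.1, 82.1 and 65.4 in TAM, so both were higher in TAM in all 3 pairs. Cd68 had 52.1, 352 and 97.4 in EtOH and 49.6, 90.5 and 116 in TAM, with a negative log2 fold change of −0.59. It was lower in TAM in pairs 1 and 2 and higher in pair 3, and it made up 352 of the 529 normalized counts of the list in EtOH_2. The endothelial marker Kdr had 205, 68.7 and 116 normalized counts in EtOH and 4.84, 7.53 and 14.0 in TAM. Its log2 fold change of −3.71 missed the threshold in limma (adjusted p = 0.0608) but passed once replicate number was a block (adjusted p = 0.0488). Kdr made up most of the endothelial sums in EtOH, which were 241, 85.9 and 132. Tek was also lower in TAM in all 3 pairs, with overlapping groups. Pecam1 had 4.65, 4.76 and 3.49 in EtOH and 2.83, 6.69 and 11.3 in TAM, higher in pairs 2 and 3. Cdh5 and Emcn reached at most 4.8 and 0.79 in any library. The fall of the endothelial sums was thus mostly that of Kdr. The part of these differences in the values of the interferon-stimulated genes was not tested. The lymphocyte and plasmacytoid dendritic cell markers, from cells that make interferon, were near 0 in all 6 libraries.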

How the data were processed

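Poly(A) RNA of 6 MSF libraries, 3 treated with EtOH and 3 with TAM, was analysed. Per the labels and the study's methods, the authors mapped reads to mm9 with TopHat, counted them per gene with HTSeq and tested them with edgeR after TMM normalization. The tools' versions are not given in the sources used here. The authors deposited 1 table with a normalized count (a signal, not a read count) for each of 22162 genes and each library. Whether these values carry the TMM factors is not stated, and since most values are fractional no count test was run. Differences in log2(value + 1) were fitted with limma 3.58.1 in R 4.3.3 (trend option), keeping the 11877 genes that reached 1 c.p.m. in 3 or more of the 6 libraries, with Benjamini-Hochberg adjustment over all of them. An adjusted p under 0.05 was a call, and the fold change scale understates changes of low genes. Read depths are not known, so no counting intervals were computed, and 3 libraries in each group set the precision.

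Libraries were grouped by their labels. Same-numbered libraries deviated together, with Pearson's r of 0.24, 0.29 and 0.42 across genes for numbers 1, 2 and 3, against −0.31 to 0.04 between different numbers, over 9 correlations, so the numbers were taken to pair the libraries and a fit with the replicate number as a block was also made. Neither the labels nor the study's text says what a number shares. The model was tested on simulated data.

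Every listed gene is named with its role. Values in every library are given for the 3 largest and 3 smallest log2 fold changes and for the genes with the highest and lowest level per kilobase of exons in each role group of 4 or more, and for other genes where a sentence compares libraries. Outside the list, genes called in either fit and the largest rise and fall are named. The members and lists were chosen with earlier results of these data known. Gene lists were written by hand. Of the listed pathway genes, 8 names did not match a name of the table (Ifna15, Ifna16, Mb21d1, Ifi27, Gbp7, Nlrc5, Helz2 and Cxcl11). Trex1 is on 2 lines of the table. The line that was tested, 1 of the 14 pathway genes with separated groups and TAM higher, has an identifier that the mm9 annotation names Atrip. The other line was at 0 in every library. Gene positions, exon lengths and overlaps come from the mm9 annotation, near copies from BLAST 2.17.0 of transcripts with 95% identity or more in stretches of 100 bases or longer, and promoters from RefSeq on GRCm38.p6. Python 3.11.15, pandas 2.3.3, scipy 1.17.1 and matplotlib 3.10.9 made the tables and figures. Alternatives were the replicate block, pseudocounts of 0.1 and 10, no filter, 10 normalized counts or more in each library, 3 other scalings, library weights, each library left out, replicate 2 of both groups left out, and longer ISRE letters.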

Additional observations from a re-analysis of the deposited data

How the results depend on the processing

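The count of 0 interferon-stimulated genes called, in either direction, held in every setting but library weights and the replicate 2 libraries left out with the block (the latter chosen after seeing the data), each with 5 called higher. The pathway genes outside the list called higher were 0 without the pairing, 2 with the replicate block, and 10 in each of those settings. Over all genes, the replicate block gave 119 higher and 73 lower, weights 386 and 356, no filter 45 and 3, replicate 2 left out 5 and 5, and replicate 2 left out with the block 527 and 397. Requiring 10 normalized counts or more in each library gave 4 lower. Leaving out 1 library gave 0 to 7 higher and 0 to 10 lower. The median of the 34 genes was 0.35 to 0.68 with 1 library left out and 0.74 with both replicate 2 libraries left out. The replicate block changed no other call of the interferon genes named, and the endothelial marker Kdr passed with it (limma adjusted p 0.0608 without and 0.0488 with the block). Scaling libraries to the same sum moved the median of all genes from −0.03 to 0.08. Of 574 values of single genes under alternatives, 533 kept direction and side of the threshold, 10 passed it, and 31 changed sign, in 8 genes. With the libraries scaled to the same sum, Dhx58 had 0.065, Ifit3 0.046 and Irf1 0.061. With library weights Cxcl10 had 0.50, Ifit3 0.22 and Irf1 0.59, and with a pseudocount of 10 Rsad2 had −0.044. With 1 library or replicate 2 left out the values ran from −1.35 to 1.21 for Cxcl10 (0.98 without EtOH_2), −0.31 to 0.15 for Dhx58, −0.37 to 0.39 for Ifit3 (the highest without TAM_2), −0.40 to 0.61 for Irf1, −0.070 (without EtOH_1) to 0.26 for Irf9, −1.29 to 0.28 for Mx2, −0.87 (without EtOH_1) to 2.37 for Rsad2 and −0.32 to 0.025 for Trim25. With replicate 2 left out and the replicate block, the pairing gave Cxcl10 1.21, Dhx58 0.15, Ifit3 0.38, Irf1 0.61, Mx2 0.28 and Trim25 0.025, as without the block. The longer ISRE letters matched 30.0% of the genes. The cause of each change was not tested.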

Other observations

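The limit of EtOH_2 more than 2 times above both other EtOH libraries was applied to the 75 pathway genes tested outside the list. It was met by Zbp1, Aim2, Socs3, Ifi203, Isg20, Ifi27l2a, Slfn2 and Slfn9, against 6.47% of all genes tested. Genes below the filter that also met it, such as Gbp1 and Gbp5, are left out. The genes were looked for after the high EtOH_2 values of Rsad2, Mx1 and Cxcl10 were seen. Isg20, an RNA exonuclease, was at 270, 1114 and 267 normalized counts in EtOH and 263, 260 and 230 in TAM, so 5 libraries lay within a narrow range and EtOH_2 lay above them. Ifi203, a member of the HIN-200 family, was at 263, 1178 and 222 in EtOH and 503, 135 and 263 in TAM. Ifi27l2a was at 59.3, 183 and 38.9 in EtOH and 68.4, 138 and 190 in TAM. The feedback inhibitor Socs3 was at 128, 406 and 117 in EtOH and 201, 262 and 466 in TAM.

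Zbp1, a sensor of Z-form nucleic acid that starts cell death, was at 34.1, 105 and 25.5 normalized counts in EtOH and 423, 161 and 196 in TAM, with separated groups, a log2 fold change of 2.37 and an adjusted p of 0.183 (limma).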
